A study of Mus musculus with 24 samples.

Results

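The genes followed here in bone marrow and liver after blood loss are 10 genes of the bone marrow niche, out of 37008 distinct gene names on the array. They were taken by name as Cxcl12, Kitl, Lepr, Angpt1, Col1a1, Col1a2, Bglap, Spp1, Cdh5 and Adam33. The array carries 29 probes for them among its 56605 probes.

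Blood stem and progenitor cells live in marrow beside stromal cells, bone-lining cells and small vessels that hold and feed them. Stromal cells that surround the sinusoids and carry the leptin receptor Lepr are a main source of the chemokine Cxcl12, which retains stem cells in marrow, and of the stem cell factor Kitl. Angpt1 is a ligand of the vascular receptor Tek, Col1a1 and Col1a2 encode the chains of type I collagen, the main protein of bone, Bglap encodes the osteoblast hormone osteocalcin, and Spp1 encodes osteopontin of bone matrix. Cdh5 encodes the cadherin of endothelial junctions and Adam33 a membrane-anchored metalloprotease of mesenchymal cells. Bleeding raises erythropoietin, and the erythroid precursors of the marrow then multiply and make erythroferrone, a hormone that lowers hepcidin in liver.

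All mice were males with the genotype Erfe-/-, that is, without functional erythroferrone, and wild-type mice were not analysed here. They were bled once behind the eye, and 4 mice each were taken at 0, 24 and 48 h, the 0 h mice serving as controls. Liver and whole bone marrow RNA gave 6 groups of 4 arrays. No label gives the age or strain of the mice, the site of the marrow or the volume of blood drawn. In whole marrow, fewer cells of a type and less RNA per cell cannot be told apart.

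The deposited scanner intensity of each array was set to log2 minus the 75th percentile of that array, so a level of 0 equals that percentile, and levels of different probes are not compared. That percentile was 693.8 to 941.8 intensity units on the 12 marrow arrays and 354.1 to 466.7 on the 12 liver arrays, and 56.5 to 63.1% and 49.5 to 60.8% of probes were well above background. Of the 2 probes for the deleted gene Erfe, 1 was well above background on 1 marrow array at 24 h and none on any other array, and whether these probes lie in the deleted part is not given in the sources used here. The library labelled marrow 24 h replicate 2 stood apart: its 10 hepatocyte markers had a median of 11% of their liver level, against at most 0.0211% on the other marrow arrays. Markers of 7 erythroid genes summed to 224 to 409 times the 75th percentile in marrow and 14.8 to 24.7 times in liver, so the tissue labels held otherwise. Where leaving that library out moved the 24 h change in marrow of any of the 10 genes by over 1.5 times or ended its call, the value without it is given too. For the other gene lists, the 24 h counts, medians and summed levels in marrow include that library and are not given without it.

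Several of the genes are read by more than 1 probe, and the probes do not read the same end of the transcript. The last 30 bases of the probes that matter for the results follow, 5′ to 3′ in the sense of the transcript, as in the scanner files (assembly mm9, the array design's positions). For Cxcl12 and for the 2 Adam33 probes nearest the 3′ end, capitals mark AATAAA, the letters of the usual polyadenylation signal. A match is a description only. The first Cxcl12 probe lies at chr6:117131257-117131286 on the plus strand and the second at chr6:117125056-117125085.
Cxcl12 A_51_P172502: tgctttcttattcttatttttaatatatga
Cxcl12 A_55_P1966204: tatttacctgaAATAAAatctactagttgt

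Adam33 runs on the minus strand of chromosome 2. The first 2 of its probes lie at chr2:130876845-130876874 and chr2:130876563-130876592. The third is split over an intron within chr2:130877240-130878566, and the fourth lies far upstream at chr2:130883874-130883903. The set is shown because the first 3 read lower in marrow at 24 h than at 0 h, without overlap, and the fourth had no called change. The fourth was well above background on only 2 of 4 marrow arrays at 0 h.
Adam33 A_55_P2083694: tcAATAAAgaaatgagacatgggcctcaga
Adam33 A_55_P2491978: gaatgtatctaataacAATAAAtccacaag
Adam33 A_52_P333289: gtgtgcatccggtggagtttggctccatca
Adam33 A_55_P2083700: cttagtgctaaagatcttggatggacctaa

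Lepr lies on the plus strand of chromosome 4 and its transcripts end at several places, giving receptors of different length. Some of its probes are shown because the tissue in which Lepr was higher depended on the probe. A further kept probe, A_55_P2621147, lies just upstream of these at chr4:101452079-101452138. Those shown run from upstream to downstream, at chr4:101452696-101452725, chr4:101464645-101464674, chr4:101486152-101486181 and chr4:101487888-101487917.
Lepr A_55_P2177910: aaccttaccttctcatggcccatgagtaaa
Lepr A_55_P2177911: ttcctgggcacaaggactgaatttccaaaa
Lepr A_55_P2506350: ttgtttgtactgagctttttgcacgtggat
Lepr A_66_P130517: gcctcaaggttccattccagtagagcctgt

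In marrow, 1 of the 10 genes was called as changed after bleeding. Adam33 fell at 24 h, to 37.1% of its 0 h level (31.2 to 44.1% at 1 standard error either way), and no gene of the set passed the test at 48 h. The genes were chosen with this fall already known, so the call is no independent support. It was lost in 5 of the 12 fits that left out 1 marrow array. Cxcl12 was 77.2% of its 0 h level at 24 h and 73.7% at 48 h, and Angpt1 was 76.8% and 85.1%, without passing. The collagens and Bglap were low on some arrays after bleeding and at their 0 h level on others, and Cdh5 stayed within a narrow range on all 12 arrays. Changes were tested with limma and adjusted by Benjamini-Hochberg over all genes, with a call at an adjusted p under 0.05.

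Over all 21381 genes tested in marrow, 1% were called at 24 h, 0.468% as lower, and 1.06% at 48 h, so 1 of 10 called at 24 h and 0 of 10 at 48 h are counts too small to set against that background. At 24 h 9 of the 10 fitted changes were below 0, against 56.9% of all genes, and their median was -0.34 on the log2 scale, against -0.03 over all genes. At 48 h 8 of the 10 were below 0, against 50.6%, and the medians were -0.26 and -0.00. The values of 2 genes, Angpt1 and Adam33, did not overlap between 0 and 24 h, as was so for 8.05% of all genes. At 48 h this held for Cxcl12 alone, against 12.4% of all genes. The 24 h and 48 h comparisons share their 4 control arrays, so their values are given side by side and not set against each other.

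**Figure D1:**
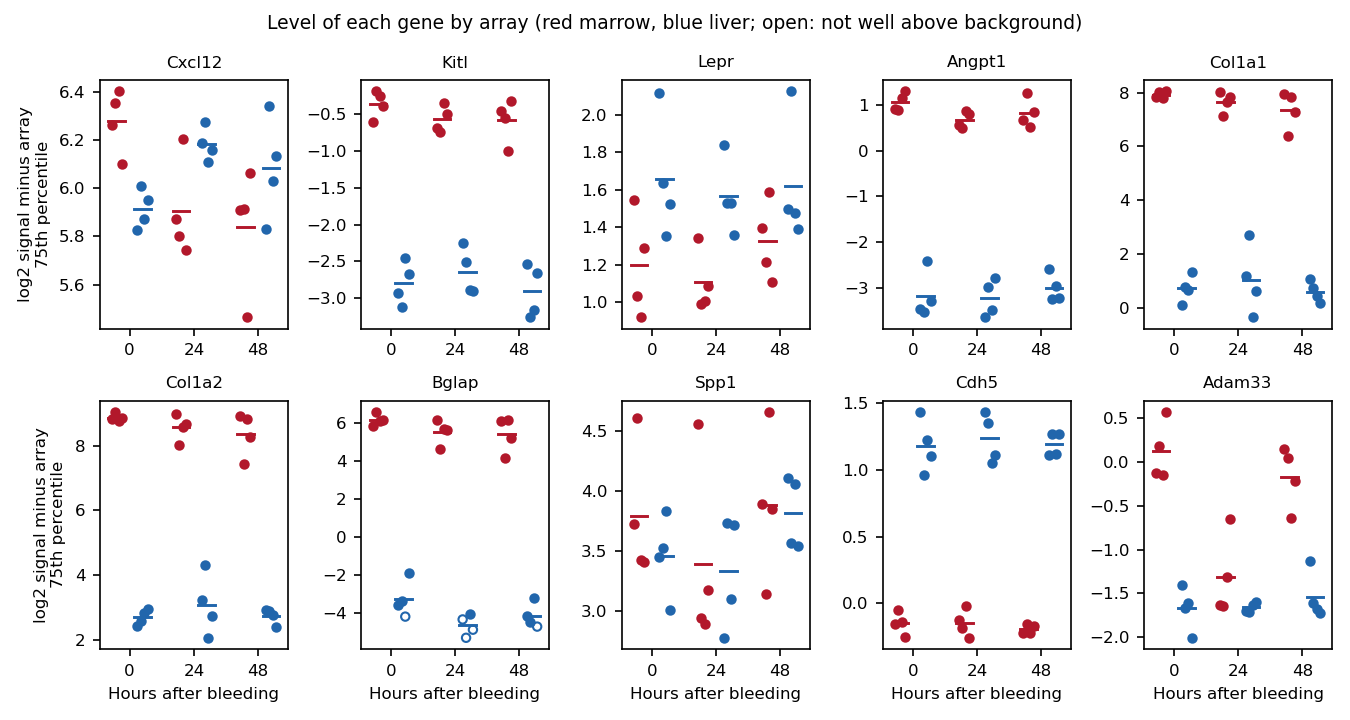
Level of each of the 10 genes (log2 signal minus the array's 75th percentile, 1 probe a gene) on each array against hours after bleeding, with marrow in red, liver in blue, bars at group means of 4 and open points not well above background. Adam33 in marrow is lower at 24 h, between -1.64 and -0.65, than on any 0 h array, and at 48 h its arrays overlap those of 0 h, and the collagens and Bglap lie several log2 units higher in marrow than in liver.

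**Figure D2:**
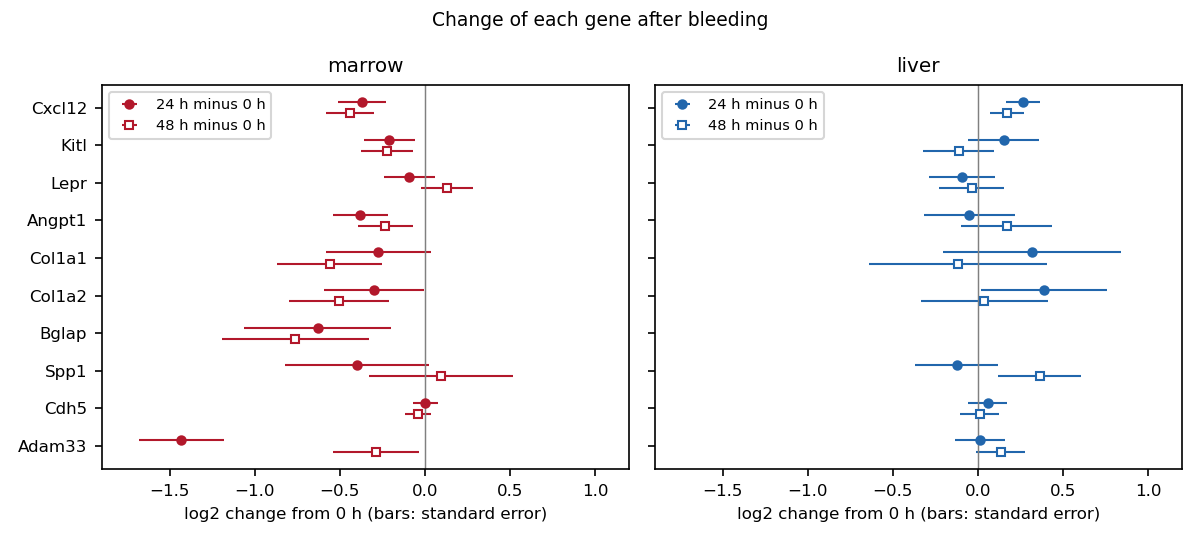
Log2 change of each gene from 0 h in marrow (left) and liver (right), at 24 h (filled) and 48 h (open), with limma standard errors, 4 arrays a group. Adam33 at 24 h in marrow, at -1.43, is the only change that passed the test, and Bglap has no liver value because its probe was not tested there.

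Cxcl12, the chemokine that holds stem cells in marrow, had marrow levels of 6.26, 6.35, 6.40 and 6.10 at 0 h, 5.87, 5.80, 6.21 and 5.74 at 24 h, and 5.91, 5.92, 5.47 and 6.06 at 48 h. Of the 24 h arrays 3 lay below every 0 h array, and of the 48 h arrays all 4 did. The change was -0.37 (SE 0.14) at 24 h, with an adjusted p of 0.302 by limma and an exact two-sided permutation p of 0.0571. At 48 h it was -0.44 (SE 0.14), adjusted p 0.162 by limma, with an exact permutation p of 0.0286, the smallest that 4 arrays against 4 can give. The second, upstream probe gave nearly the same changes, -0.37 and -0.51, and its 48 h arrays also lay below all 0 h arrays. Neither change passed the test over all genes, and within the 3 slides on which arrays of all times were hybridised the 48 h change was -0.40, -0.71 and -0.03.

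In liver Cxcl12 read 5.83, 6.01, 5.87 and 5.95 at 0 h and 6.19, 6.27, 6.11 and 6.16 at 24 h. The groups did not overlap, with a change of 0.27 (SE 0.10), an adjusted p of 0.384 by limma and an exact permutation p of 0.0286. Non-overlap of this kind was seen for 5.76% of all genes in liver. The second probe gave the same change of 0.27. The difference between the tissues in the change was -0.64 (SE 0.18) at 24 h and -0.61 (SE 0.18) at 48 h, with adjusted p of 0.121 and 0.161 by limma, so opposite fitted directions did not amount to a called difference.

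Kitl, the membrane-bound and soluble ligand of the receptor Kit, had a mean marrow level of -0.36 (SD 0.18, n = 4) at 0 h, -0.57 (SD 0.18) at 24 h and -0.59 (SD 0.29) at 48 h. The changes of -0.21 and -0.22 (SE 0.15) were near the spread between mice and were not called, with adjusted p of 0.608 and 0.507 by limma. Without 48 h replicate 3, its lowest array, the 48 h change was -0.08. All 3 of its probes had fitted values below 0 at both times, from -0.30 to -0.13. In liver Kitl was lower on every array than on any marrow array, between -3.26 and -2.26.

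Angpt1, the ligand that keeps endothelium quiet through Tek, had marrow levels of 0.91, 0.88, 1.14 and 1.29 at 0 h and 0.55, 0.48, 0.86 and 0.80 at 24 h. Every 24 h array lay below every 0 h array, by a mean of 0.38 (SE 0.16), with an exact permutation p of 0.0286 and an adjusted p of 0.363 by limma. At 48 h the arrays read 0.67, 1.26, 0.51 and 0.84 and overlapped those of 0 h, and the change was -0.23 (SE 0.16), or -0.38 without 48 h replicate 2, -0.13 without 48 h replicate 3 and -0.15 without 0 h replicate 4. Within slides the 24 h change was -0.34, -0.66 and -0.46. Angpt1 has 1 probe, so no second reading exists on the array.

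Lepr, the receptor that marks perisinusoidal stroma, did not move beyond its spread in marrow by any probe. The probe with the highest signal read 1.55, 1.03, 0.92 and 1.29 at 0 h, and had values of 0.99 to 1.34 at 24 h and a mean of 1.33 (SD 0.21, n = 4) at 48 h. The 3 groups overlapped. The changes were -0.09 at 24 h and 0.13 at 48 h (SE 0.15 each), with adjusted p of 0.840 and 0.721 by limma, and the 24 h change was -0.05 without 24 h replicate 2. The next probes downstream, A_55_P2177911 and A_55_P2506350, changed by 0.02 and 0.01 at 24 h and by -0.12 and -0.13 at 48 h. The probe farthest downstream was well above background on 1 of 12 marrow arrays and on 0 of 12 liver arrays, so no level can be given for the transcript end it reads.

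Other reticular stroma and niche factor genes were not called either. Of 16 such genes 15 were tested in marrow and 0 were called at either time, where 1% and 1.06% of all genes were. At each time 13 of the 15 were below 0, against 56.9% and 50.6% of all genes, with medians of -0.24 at 24 h and -0.14 at 48 h. Above 0 at 24 h were Igf1 and Ngfr, each with 1 array above every 0 h array and 2 below. At 24 h the arrays of 4 of the 15, Ebf3, Vcam1, Csf1 and Grem1, lay wholly below those of 0 h, where 8.05% of all genes did not overlap in either direction. Csf1, the macrophage growth factor, was at -0.48 and Grem1, a BMP antagonist, at -0.41, and both are named after their values were seen. At 24 h the smallest p-values belonged to Vcam1, an adhesion molecule for blood progenitors, and Ebf3, a transcription factor of Cxcl12-rich stroma. Vcam1 was at -0.38 (SE 0.09), adjusted p 0.0911 by limma, and Ebf3 at -0.67 (SE 0.18), adjusted p 0.129. At 48 h they belonged to Thpo, the thrombopoietin gene, at 0.28 (SE 0.09) with an adjusted p of 0.174 by limma, and again to Ebf3, at -0.45 with 0.263.

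On the receiving side, 15 receptors and proteases that bind or cut the products of the 10 genes were tested. At 24 h 1 was called, where 1% of all genes were. The collagen receptor Ddr1 fell at 24 h, by 0.65 (SE 0.10, adjusted p 0.0142 by limma), with all 4 arrays below those of 0 h. The call was lost without marrow 0 h replicate 2, where the adjusted p by limma was 0.0522. At 48 h none was called, the nearest being Ddr1 at -0.40 with an adjusted p of 0.0889 by limma and the integrin chain Itgav at -0.39 with 0.139. The list's medians were -0.17 and -0.12.

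The collagen chains and Bglap varied less between mice at 0 h than at 24 or 48 h. Col1a1 read 7.84, 8.02, 7.81 and 8.06 in marrow at 0 h, with little spread. After bleeding it read 8.02, 7.12, 7.67 and 7.83 at 24 h and 7.96, 6.38, 7.86 and 7.29 at 48 h. The changes were -0.28 (SE 0.31) and -0.56 (SE 0.31), with adjusted p of 0.754 and 0.402 by limma. Replicate 2 was the lowest array at both times. Without the 48 h one the 48 h change was -0.23, and without the 24 h one, the library with hepatocyte RNA, the 24 h change was -0.09.

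Col1a2, the second chain of the same collagen, followed the same arrays. It read 8.81, 9.04, 8.76 and 8.85 at 0 h, 8.99, 8.03, 8.59 and 8.66 at 24 h, and 8.90, 7.44, 8.82 and 8.28 at 48 h. Its changes of -0.30 and -0.51 (SE 0.29) were not called, with adjusted p of 0.714 and 0.427 by limma, and without replicate 2 of the time in question they were -0.12 at 24 h and -0.20 at 48 h. A further pair of Col1a2 probes gave -0.46 and -0.59 at 24 h and -0.90 and -0.98 at 48 h, none of them called.

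Col1a1 is also read by 3 probes with signal, of which A_52_P525107 and A_55_P2118520 overlap and are not separate readings. They share 20 bases at chr11:94813115-94813134, in capitals here.
Col1a1 shared bases: TGACCAACTGAACGTGACCA

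The third, A_66_P101466, about 1 kb further downstream, read 7.60, 8.12, 7.60 and 7.88 at 0 h and 7.55, 5.96, 7.52 and 6.90 at 48 h. These groups did not overlap, with a change of -0.82 (SE 0.33), an exact permutation p of 0.0286 and an adjusted p of 0.270 by limma over all probes.

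Bglap, expressed by mature osteoblasts, read 5.84, 6.60, 6.11 and 6.16 at 0 h, 6.17, 4.64, 5.71 and 5.65 at 24 h, and 6.09, 4.17, 6.16 and 5.23 at 48 h. Its changes were -0.63 and -0.76 (SE 0.43), adjusted p 0.583 and 0.417 by limma. Leaving out replicate 2 at the time in question reduced them to -0.33 and -0.35. The lowest array was therefore the same for both collagen chains and for Bglap at each time. Mouse Bglap lies in a cluster of near-identical genes, and the Bglap2 probe also lists the Bglap transcript, so their signals cannot be told apart with certainty. The Bglap probe reads the start of the coding sequence (chr3:88188320-88188349, minus strand, capitals at the ATG), and the Bglap2 and Bglap3 probes overlap over 25 aligned bases with 2 differences, in capitals.
Bglap A_55_P2106800: ctagcagacaccATGaggaccatctttctg
Bglap2 A_55_P2106803: aGaccagtatggcttGaagaccgcc
Bglap3 A_55_P2086507: aAaccagtatggcttAaagaccgcc

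Spp1, made by osteoblasts and by osteoclasts, had its highest value on a different array at each time. It read 3.72, 4.61, 3.42 and 3.40 at 0 h, 4.55, 2.94, 2.89 and 3.17 at 24 h, and 3.89, 3.14, 4.66 and 3.85 at 48 h. The highest arrays were 0 h replicate 2, 24 h replicate 1 and 48 h replicate 3, and the groups overlapped, with changes of -0.40 and 0.09 (SE 0.42). Neither size is stable. The 24 h change was -0.13 without 0 h replicate 2, -0.25 without 24 h replicate 2, -0.23 without 24 h replicate 3 and -0.79 without 24 h replicate 1, and the 48 h change was -0.16 without 48 h replicate 3 and 0.37 without 0 h replicate 2. The summed linear level of 7 measured osteoclast markers, in units of each array's 75th percentile, was highest on the same arrays, at 166, 198 and 150, and 66.4 to 115 on the 9 others. Its part in the Spp1 values was not tested.

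**Figure D3:**
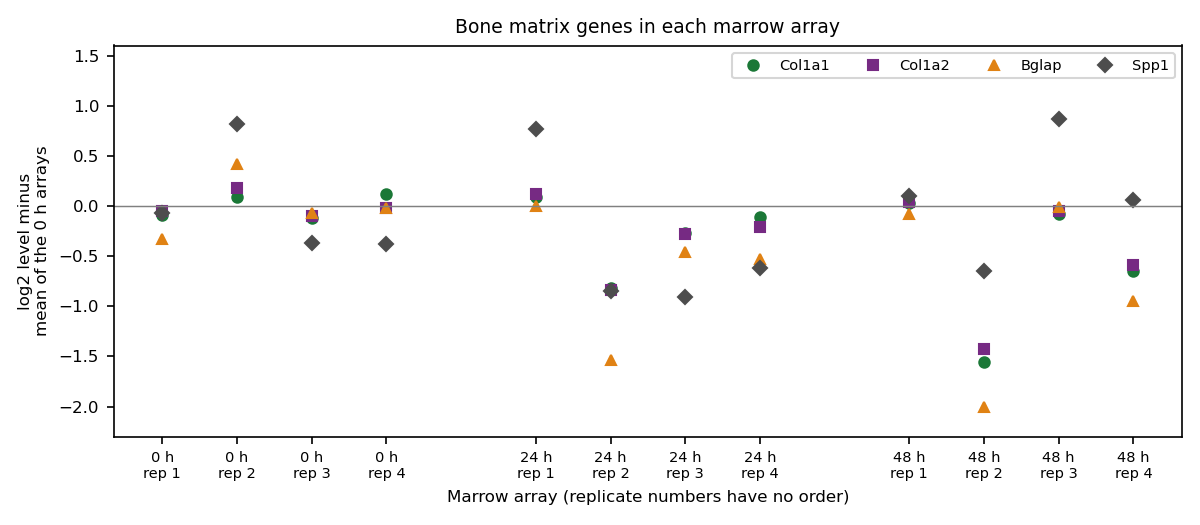
Log2 level of Col1a1, Col1a2, Bglap and Spp1 on each of the 12 marrow arrays minus the gene's mean over the 4 arrays at 0 h. The collagen chains and Bglap lie together and are lowest on replicate 2 at 24 h and at 48 h, whereas Spp1 is highest on 0 h replicate 2, 24 h replicate 1 and 48 h replicate 3.

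Across the 12 marrow arrays, the genes most like each member by Pearson's r were named as a description, since the arrays share the processing and 21381 genes were searched. Names that are only a probe, accession, clone or predicted gene were passed over. Nearest therefore means nearest among the remaining named genes. Col1a1 lay closest to Col1a2 (r = 0.990), to Sparc, the collagen-binding matrix protein (0.980), and to Slc13a5, a citrate transporter (0.977). Bglap lay closest to Bglap3 (0.993), Bglap2 (0.992) and Prss35 (0.991). Spp1 lay closest to Mst1r (0.932), Pheta1 (0.921) and Slc9b2 (0.917), so Col1a1, Col1a2 and Bglap were not among its nearest 3. For Cxcl12 the nearest were Neurl1b (0.922), Zbtb32 (0.920) and Dennd4c (0.918), for Kitl Slc29a4 (0.955), for Lepr Ptpn5 (0.973), for Angpt1 Cd226 (0.948) and for Cdh5 Rarg (0.877). Without the marrow library that holds hepatocyte RNA, the nearest gene was another one for Cxcl12 (Sfxn3, 0.943), Spp1 (Wnt4, 0.944), Col1a1 (Mamdc2, 0.991), Col1a2 (Sparc, 0.990) and Adam33.

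Other genes of the bone lineage were not called. Of 17 osteoblast and osteocyte genes 16 were tested and 0 were called at either time, where 1% and 1.06% of all genes were. Below 0 were 14 at 24 h and 13 at 48 h, against 56.9% and 50.6% of all genes, with medians of -0.49 and -0.32. At 24 h the smallest p-values were those of Ibsp, the bone sialoprotein gene, at -0.66 (SE 0.28, adjusted p 0.352 by limma), and Pth1r, the parathyroid hormone receptor, at -0.72 (0.454). At 48 h they were those of Omd, the osteoblast proteoglycan osteomodulin, at -1.36 (SE 0.47, adjusted p 0.194 by limma), and Dmp1, an osteocyte matrix protein, at 0.97 (0.310). The spread between arrays differed among these genes, the SD at 0 h being 0.12 for the osteocyte hormone Fgf23, 0.16 for Bglap2 and 0.71 for the osteocyte matrix protein Mepe (n = 4). The summed level of the list was 543 to 707 at 0 h, 264 to 636 at 24 h and 206 to 620 at 48 h. It gives most weight to the genes of highest signal, Bglap2 and Bglap3 (means 8.53 and 7.71 at 0 h). The sum is therefore not a reading fully separate from Bglap, and replicate 2 was again the lowest at 24 and at 48 h.

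Among 25 collagen matrix genes, Mgp, the matrix Gla protein that inhibits calcification, rose at both times. Its marrow level was 1.28 to 1.77 at 0 h, 3.17 to 3.76 at 24 h and 2.86 to 3.25 at 48 h. The change was 1.95 (SE 0.15, adjusted p 0.000117 by limma) at 24 h and 1.51 (SE 0.15, adjusted p 0.000723) at 48 h, and it was called without each marrow array in turn. Fstl1, a secreted glycoprotein of mesenchymal cells, fell at 48 h by 0.72 (SE 0.14, adjusted p 0.0364 by limma). That call was lost without any one of 8 of the 12 marrow arrays (replicates 2, 3 and 4 at 0 h and at 48 h, and 3 and 4 at 24 h), with the highest adjusted p by limma, 0.134, without 48 h replicate 2. The other members of the list were not called, and over all genes 1% and 1.06% were called. Below 0 were 20 of 25 at 24 h, against 56.9% of all genes, and 24 of 25 at 48 h, against 50.6%. The medians were -0.33 and -0.62. At 48 h the arrays of 6 of the 25 lay wholly below those of 0 h and those of 1 wholly above. Over all genes 12.4% did not overlap in either direction.

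The RefSeq table used (assembly GRCm38.p6) holds promoter sequence for 6 of the 10 genes, with 8 promoters. The 250 bases before the start site are shown for Col1a2 and Bglap, which moved together across arrays, and for Spp1. Over the 12 marrow arrays r was 0.977 between Col1a2 and Bglap. Spp1 followed them less closely, with r of 0.577 and 0.623. Capitals mark TATAAA, the letters of the TATA box, CCAAT, those of the CCAAT box, and ACCACA, a core bound by Runx factors, on either strand (reversed, the second reads ATTGG). These occur in 12.4%, 33.8% and 14.0% of the 32851 promoters of that table over the same length. Bglap holds all 3, at 27, 90 and 132 bases before the start, and Col1a2 holds CCAAT at 109 bases. The first of 2 Spp1 promoters also holds all 3, at 211, 46 and 128 bases. The second, not shown, holds none of them. No motif overlaps another, and a match is not a site.
Col1a2 chr6:4505368-4505617, plus strand: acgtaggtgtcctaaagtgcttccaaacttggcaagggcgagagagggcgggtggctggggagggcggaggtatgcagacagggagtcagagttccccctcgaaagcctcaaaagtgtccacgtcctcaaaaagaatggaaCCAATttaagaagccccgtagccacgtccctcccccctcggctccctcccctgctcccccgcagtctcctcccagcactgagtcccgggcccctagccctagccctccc
Bglap chr3:88384467-88384716, minus strand: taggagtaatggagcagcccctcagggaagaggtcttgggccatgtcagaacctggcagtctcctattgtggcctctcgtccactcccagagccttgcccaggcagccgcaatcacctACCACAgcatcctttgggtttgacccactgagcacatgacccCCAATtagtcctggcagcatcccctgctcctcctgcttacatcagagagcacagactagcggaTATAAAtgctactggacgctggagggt
Spp1 chr5:104434861-104435110, plus strand: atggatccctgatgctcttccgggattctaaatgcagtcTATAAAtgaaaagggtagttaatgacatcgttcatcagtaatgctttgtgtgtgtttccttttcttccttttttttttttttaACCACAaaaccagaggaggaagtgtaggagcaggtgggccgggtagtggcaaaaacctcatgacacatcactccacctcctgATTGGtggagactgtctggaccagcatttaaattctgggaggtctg

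Cdh5, the cadherin that seals endothelial junctions, had the least spread of the set in marrow. All 12 arrays read between -0.26 and -0.02, with changes of 0.00 at 24 h and -0.04 at 48 h (SE 0.07 each), and 0.01 at 24 h without replicate 2. Its 24 h level was 95.2 to 105.4% of the 0 h level at 1 standard error either way, so a change the size of that of Adam33 lies far outside this range. In liver it read 0.96 to 1.43 at 0 h and 1.05 to 1.43 at 24 h.

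Of 23 other endothelial genes 1 was called at 24 h, where 1% of all genes were. Ramp2, a subunit of the receptor for adrenomedullin, rose. Its level went from 0.35 (SD 0.19, n = 4) at 0 h to 1.03 (SD 0.07) at 24 h, with no overlap, a change of 0.68 (SE 0.11, adjusted p 0.0179 by limma). The call was lost without 0 h replicate 1 (adjusted p 0.0541 by limma), 0 h replicate 4 (0.0509) or 24 h replicate 1 (0.0597). Tek, the receptor for Angpt1, was at 0.63 (SE 0.17, adjusted p 0.119 by limma) with all 4 arrays above those of 0 h. Ramp2 and Tek were among 4 of the 23 whose 24 h arrays lay wholly above those of 0 h. Over all genes 8.05% did not overlap in either direction. At 48 h none was called, the smallest p-values being those of Erg, an endothelial transcription factor, at -0.38 (adjusted p 0.206 by limma), and Egfl7 at 0.25 (0.327). The medians of the list were 0.04 and 0.06, and its summed level was 48.6 to 55.7 at 0 h, 52.3 to 56.5 at 24 h and 51.7 to 59.2 at 48 h.

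Adam33, a metalloprotease of mesenchymal cells, read -0.12, 0.19, -0.14 and 0.57 in marrow at 0 h, -1.63, -1.64, -1.31 and -0.65 at 24 h, and 0.15, 0.05, -0.64 and -0.22 at 48 h. Every 24 h array lay below every 0 h array, and at 48 h the values overlapped those of 0 h. The 24 h change was -1.43 (SE 0.25), with an adjusted p of 0.0229 by limma and an exact permutation p of 0.0286. Within the 3 slides it was -1.66, -1.50 and -1.55, and with slide as a block the adjusted p by limma was 0.0201. At 48 h the change was -0.29 (SE 0.25, adjusted p 0.607 by limma).

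The call is near its threshold, although the size of the change held. Leaving out 1 marrow array at a time gave changes of -1.65 to -1.28 and adjusted p of 0.0125 to 0.0819 by limma. The call was lost without 0 h replicate 2 (adjusted p 0.0819 by limma), 0 h replicate 4 (0.0668), 24 h replicate 1 (0.0721), 24 h replicate 2 (0.0676) and 24 h replicate 3 (0.0530). Without 24 h replicate 2, the library with hepatocyte RNA, the change was -1.32. Between 24 and 48 h Adam33 was 1.14 higher (SE 0.25), with no overlap, which was so for 3.72% of all genes. This change was not called (adjusted p 0.439 by limma). None of the 10 genes was called between these times, where 0.00468% of all genes were called.

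The other probes near the 3′ end gave the same fall. A_52_P333289, over the intron, changed by -1.57 (SE 0.31) with an adjusted p of 0.0465 by limma over all probes. A_55_P2491978 changed by -1.63 (SE 0.40) with an adjusted p of 0.10 by limma, and neither overlapped between 0 and 24 h. The upstream probe A_55_P2083700 changed by 0.27 (SE 0.28, adjusted p 0.748 by limma), but it was dim. In marrow it was well above background on 2 of 4 arrays at 0 h, 4 at 24 h and 1 at 48 h. It was therefore kept in marrow through the 24 h group alone, and so near background a fall cannot be read from it. The remaining probe, A_55_P2719614, was well above background on 1 of 24 arrays.

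In liver Adam33 read a mean of -1.67 (SD 0.25, n = 4) at 0 h, -1.66 (SD 0.05) at 24 h and -1.54 (SD 0.27) at 48 h. The difference between marrow and liver in the 24 h change was -1.44 (SE 0.30), called with an adjusted p of 0.0423 by limma, where 0.347% of 22768 genes were called. With slide as a block the adjusted p by limma was 0.0502, and the call was lost without any one of 19 of the 24 arrays. At 48 h the difference was -0.42 (SE 0.30, adjusted p 0.665 by limma), and 0 of 10 genes were called against 0.387% of all genes.

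**Figure D4:**
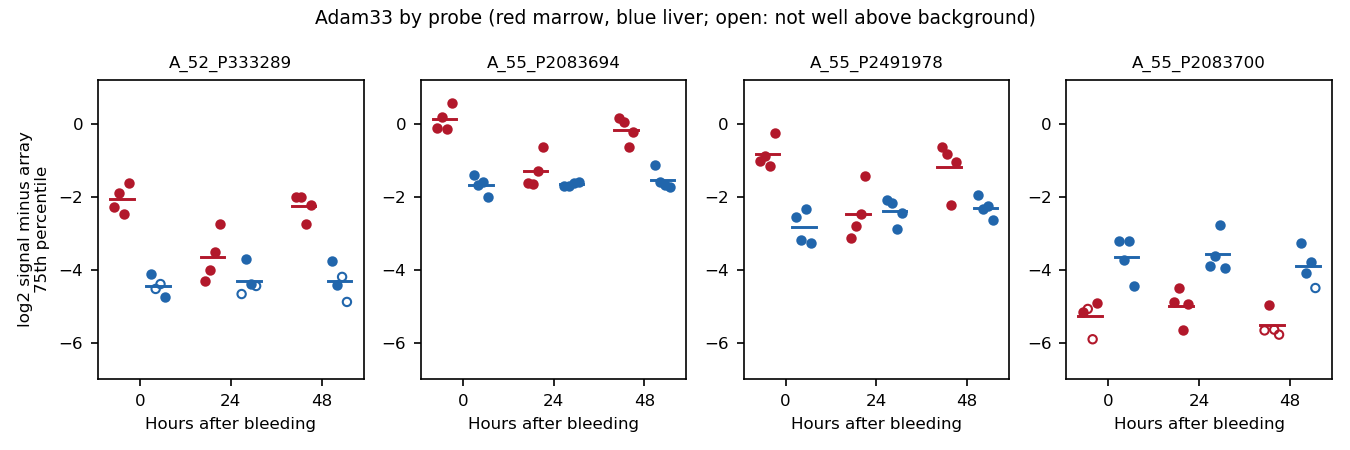
Log2 level minus the array's 75th percentile for 4 Adam33 probes in marrow (red) and liver (blue) against hours after bleeding, with bars at group means of 4 and open points not well above background. The first 3 probes drop in marrow at 24 h, by 1.43 to 1.63. The upstream probe at the right reads higher in liver than in marrow, where it lies too near background for a fall to be read.

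B cell markers also had lower fitted levels at 24 h. Of 11 B cell markers 10 were measured, and their summed marrow level was 43.7 to 75.9 at 0 h, 29.1 to 44.1 at 24 h and 31.0 to 56.8 at 48 h. All 10 changes were below 0 at 24 h, against 56.9% of all genes, with a median change of -0.78. Of the 10, 2 were called, where 1% of all genes were. Cxcr5, a chemokine receptor of mature B cells, fell by 1.86 and Cr2, their complement receptor, by 1.15 (adjusted p 0.0256 and 0.0419 by limma). Both calls were lost without 0 h replicates 2, 3 or 4 or 24 h replicates 1 or 2, with adjusted p by limma up to 0.0986 and 0.144, and that of Cr2 without 4 further arrays, 24 h replicates 3 and 4 and 48 h replicates 2 and 4. At 48 h all 10 were again below 0, against 50.6% of all genes, with a median of -0.64 and none called. All 10 were well above background on every marrow array. Macrophage markers summed to 69.6 to 78.2 at 0 h, 54.5 to 63.9 at 24 h and 54.3 to 60.8 at 48 h, with none called. At each time 4 of the 7 tested lay wholly below 0 h. Over all genes 8.05% and 12.4% did not overlap in either direction. Erythroid markers summed to 236 to 343, 224 to 312 and 307 to 409, with 3 of 7 wholly above 0 h at 48 h. The part of these cell types in the Adam33 change was not tested.

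The 7 catalytically active ADAM relatives of Adam33 were tested beside it and 0 were called at either time, where 1% and 1.06% of all genes were. Adam12, an ADAM of muscle and bone precursors, was at -0.42 (SE 0.11, adjusted p 0.127 by limma) at 24 h and -0.33 (0.194) at 48 h, each time with all 4 arrays below those of 0 h. The next were Adam28 at 24 h, at -0.19, and Adam15 at 48 h, at -0.34. Across the 12 marrow arrays the genes most like Adam33, among named genes as above, were Slc25a53 (r = 0.934), Cacna1g (0.931) and Cbx7 (0.925). Over the 11 arrays without 24 h replicate 2 they were Rassf7 (0.957), Foxn3 (0.952) and Runx1t1 (0.935).

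Liver is set beside marrow as a tissue with its own stromal and sinusoidal cells. Of the 10 genes 9 were tested there and 0 were called at 24 or 48 h, where limma called 0% of 19638 genes at either time and 11.2% and 6.56% had an unadjusted p under 0.05. Cxcl12 at 24 h was the only one of the 9 with an unadjusted p under 0.05, and at 48 h the arrays of all 9 overlapped those of 0 h, where 4.29% of all genes did not. The collagens were high in 1 liver library, 24 h replicate 2, where Col1a1 read 2.69, against -0.36 to 1.18 on the other 24 h arrays, and Col1a2 4.32, against 2.07 to 3.24. Bglap was not well above background on that array. Spp1, in liver a product of bile duct and stellate cells, had a mean of 3.45 (SD 0.34, n = 4) at 0 h and 3.82 (SD 0.30) at 48 h, with overlapping arrays and a change of 0.36 (SE 0.25, adjusted p 0.869 by limma).

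Before bleeding, marrow and liver differed in 9 of the 10 genes, 7 higher and 2 lower in marrow, where 80.3% of all 22768 genes differed, so the count says little by itself. The arrays of the tissues did not overlap for 8 of the 10, against 76.1% of all genes. Sizes differed widely. Col1a1 was 149-fold higher in marrow (7.22 on the log2 scale, SE 0.45), Col1a2 71.7-fold (6.16, SE 0.35), Angpt1 18.6-fold (4.22, SE 0.23), Kitl 5.38-fold (2.43, SE 0.19) and Adam33 3.47-fold (1.79, SE 0.22). Bglap was 9.41 higher (SE 0.48), but its liver probe was well above background on only 3 of 4 arrays at 0 h. Its second probe was above background on no liver array and was at least 33.9-fold higher in marrow, where the limit of each liver array is its dimmest probe over background. Spp1 did not differ beyond its spread (0.34, SE 0.37, adjusted p 0.403 by limma).

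Cxcl12 was only 1.29-fold higher in marrow at 0 h (0.36, SE 0.12, adjusted p 0.0112 by limma), and its second probe gave 0.65. Cdh5 was 39.9% of its liver level (-1.33, SE 0.10), with no overlap. For Lepr the tissue order depended on the probe. The brightest one was lower in marrow by 0.46 (SE 0.18, adjusted p 0.0247 by limma), with overlapping arrays and an exact permutation p of 0.0857. The 2 probes further downstream were higher in marrow, by 2.22 (SE 0.38) and 3.42 (SE 0.29), with no overlap. A_55_P2621147, on no liver array well above background at 0 h, was at least 1.71-fold higher in marrow. It lies just upstream of the brightest probe, so the tissue order did not simply follow position along the gene.

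The Adam33 probes also disagreed. The probes A_55_P2083694 and A_55_P2491978, measured on all arrays at 0 h, were 1.79 and 2.01 higher in marrow than in liver. A_52_P333289 was 2.38 higher and the upstream probe 1.61 lower (SE 0.33), but the first was well above background on 2 of 4 liver arrays and the second on 2 of 4 marrow arrays, so neither size is fully measured. Probes of a gene that oppose each other lie at different places along it, and no probe was tested against another.

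**Figure D5:**
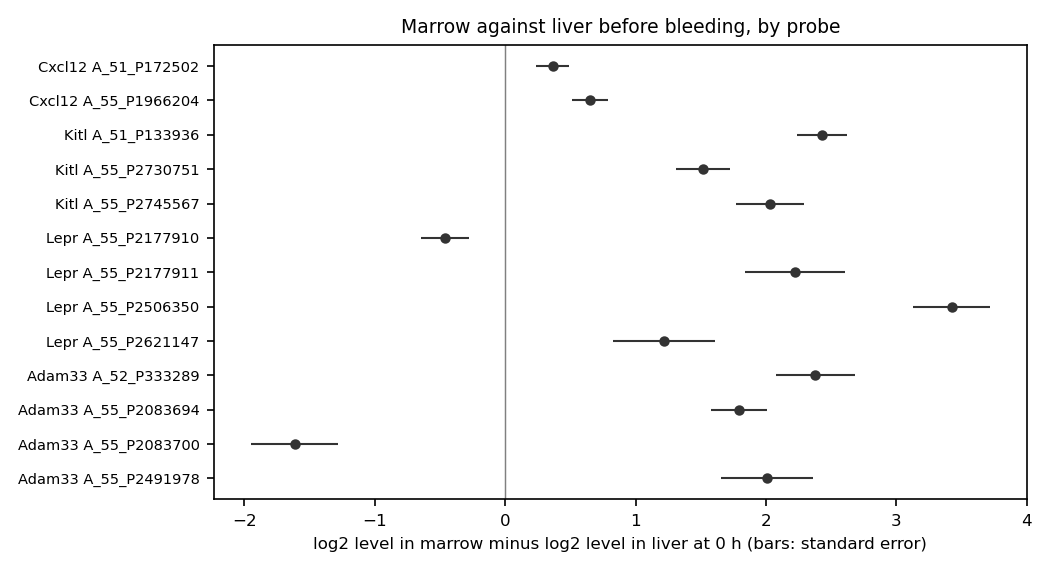
Log2 level in marrow minus that in liver at 0 h for each kept probe of Cxcl12, Kitl, Lepr and Adam33, with limma standard errors over 4 and 4 arrays. All probes of Cxcl12 and Kitl lie above 0, whereas A_55_P2177910 of Lepr, at -0.46, and A_55_P2083700 of Adam33, at -1.61, lie below 0 and the other probes of these genes above. Probes A_55_P2730751 and A_55_P2745567 of Kitl and A_55_P2621147 of Lepr were not well above background on any liver array at 0 h, so their points are limited by the background there.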

How the data were processed

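RNA of 24 samples was hybridised to 1-colour Agilent arrays, and samples were grouped by the tissue, time and replicate number of their titles. The deposited scanner files hold spot intensity from Agilent Feature Extraction 10.10.1.1 (per the submitters' processing notes), background subtracted within the array. The authors' deposited table of log2 values, whose making is not stated, served as an alternative only. Control spots and flagged spots were left out and spots of a probe averaged. Log2 intensity minus the array's 75th percentile was used, and a probe was kept where it was well above background on all 4 arrays of a group. A gene is its brightest kept probe. Fits used limma 3.58.1 in R 4.3.3 (lmFit, eBayes, Benjamini-Hochberg, threshold 0.05), 12 arrays a tissue or all 24. The permutation test over 70 arrangements is exact and two-sided. Normalisation, filter, probe rule, slide, replicate block, array weights and left-out arrays were varied. From the niche lists the called genes and the 2 smallest p-values per comparison are named, and for likeness up to 3 genes by r. Likeness passed over names that are only a probe, accession, clone or predicted gene.

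Names came from RefSeq tables by accession for 32989 probes, symbol for 10228 and synonym for 519, and 12869 kept the file's name. The fit was tested on simulated data. The 10 genes and all lists were chosen with earlier results of these data known, and the 24 h fall of Adam33 was among them, so it is no independent support. The number of arrays limits the precision. Labels give 4 mice a time but not whether both tissues of a number are from 1 mouse.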

Additional observations from a re-analysis of the deposited data

Results flagged for a closer look

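One of 60 groups of 4 arrays, over the 10 genes and 6 groups, held an array far from the other 3, where chance gives about 3. Lepr in liver 48 h replicate 2 read 2.13 against 1.39 to 1.50, a gap of 0.849 of the whole range. The fall of Adam33 at 24 h differed between tissues by -1.44 (marrow minus liver). Probes that were left out of the comparisons as dim were well above background on 1 array each after bleeding and on none before. These were Col1a2 A_55_P2610621 on marrow 24 h replicate 3 at -4.00, and Lepr A_55_P2621144 and Col1a1 A_55_P2717469 on marrow 48 h replicate 3 at -3.42 and -3.53. Lepr A_66_P130517 was so on marrow 48 h replicate 2 at -5.34. Each rests on 1 spot, and its cause was not tested.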

How the results depend on the processing

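At 24 h in marrow the count of called genes, 1 (Adam33), was 0 with no filter on dim probes, with the mean of kept probes and with only the compared groups fitted, and 2 with array weights (Cxcl12 at -0.48, adjusted p 0.0432 by limma). It ranged from 0 to 1 without each array in turn. At 48 h it was 0 and became 1 with array weights (Cxcl12 at -0.41, adjusted p 0.0469 by limma). The tissue difference in the 24 h change, 1 called, was 0 with the array median, no filter on dim probes, the mean of kept probes, the slide block, the replicate block and every kept probe as a feature (an alternative chosen after seeing the data), and 0 to 1 without each array. With array weights the count stayed 1 but Adam33 was not the called gene (-1.13, adjusted p 0.0813 by limma). Counts in liver, between 48 and 24 h and for the 48 h tissue difference were 0 under every alternative, and at 0 h 8 to 9 genes differed between tissues. Over all marrow genes, calls were 66 to 763 at 24 h (main 214) and 89 to 1627 at 48 h (main 227), the lowest with no filter and the highest with array weights. Changes near 0 turned sign. Cdh5 at 24 h was -0.0018 with normexp background, -0.0031 in the authors' deposited table and -0.0332 with array weights, and -0.0402 to 0.0392 without each array. Lepr at 24 h was 0.0513 with array weights and -0.19 to 0.0242 without each array, and at 48 h it was -0.12 with the mean of kept probes. Spp1 at 48 h was -0.16 to 0.37 without each array. Scaling moved the median of all marrow genes by less than 0.1. The cause of these shifts was not tested.

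Replicate numbers were not used to pair the samples. Within a tissue, the deviations of same-numbered arrays across times correlated at -0.25 to 0.17 in marrow and -0.27 to 0.15 in liver. They were over 0.1 in 6 and 3 of 12 pairs. For differently numbered arrays the ranges were -0.251 to 0.282 and -0.155 to 0.262. Because the ranges overlap, they cannot settle whether the numbers pair samples, and pairs across tissues were not compared. With the number as a block, 1 gene was called in marrow at 24 h and 0 in the tissue difference (Adam33 adjusted p 0.0698 by limma), and calls over all genes were 123 at 24 h and 95 at 48 h.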
